A study of Mus musculus with 4 samples.

Results

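Macrophages and other myeloid cells were followed here through 32 marker genes of these cells, read in mouse skin at E16.5, where E stands for embryonic day, with and without overexpression of Ovol2, a zinc finger transcription factor of epithelia. The genes were fixed by name, each through the probe sets annotated to that gene alone, and each had 1 such probe set. All 32 were found among the 19938 genes with a single annotated symbol. A filter on dim genes, a mean level at or above the 25th percentile of all gene means (7.32 on the scale below), was passed by 30 of the 32 and by 14953 genes in all. Ccr2 and Aif1 did not pass it and have values but no test.

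The 4 arrays were 2 of control skin and 2 of Ovol2 BT skin, each carrying RNA of 2 mice. Ovol2 BT embryos carried TRE-Ovol2-Flag, a tetracycline-responsive transgene, together with K5-tTA, in which the keratin 5 promoter drives the transactivator in basal keratinocytes. Controls carried the transgene alone or were wild type, so no control array held K5-tTA by itself. The labels give the strain as CB6F1 for the control arrays and FVB/N for the Ovol2 BT arrays, while the growth protocol speaks of littermates. Strain and genotype cannot be told apart in any comparison below. The labels give all animals as female. The level of Eif2s3y, a Y-linked gene, was 10.13 and 6.17 on control replicates 1 and 2 and 10.40 and 4.72 on Ovol2 BT replicates 1 and 2, so both arrays numbered 1 carried Y-linked signal.

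Values are levels on the log2(intensity + 16) scale, where an added 16 shrinks the folds of dim genes. Array medians of the deposited intensity lay between 266.0 and 303.5. A fold is the mean of the Ovol2 BT arrays minus the mean of the control arrays, and a gene was called at a limma adjusted p under 0.05 over all genes tested. Ovol2 itself rose by 5.01 (SE 0.27, limma adjusted p = 0.0253), from 7.59 and 8.29 to 12.93 and 12.96. Ovol2 BT replicate 2 stood apart. There 893 of the 14953 genes tested lay over 1 log2 unit below the mean of the other 3 arrays. On Ovol2 BT replicate 1 it was 33. None of the 30 members tested was among the 893, but 30 genes are too few for that to set them apart. Replicate 2 lay over 0.5 log2 units below replicate 1 for 16.7% of the members and 15.5% of all genes tested. Krt5 and Col1a1, which define keratinocytes and fibroblasts, had levels of 12.88 to 13.80 and 13.50 to 13.58, so the RNA was that of skin, of which myeloid cells are a minor part. Fewer cells of a type and less RNA per cell cannot be told apart in such whole tissue.

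Embryonic skin is seeded before birth by macrophages from the yolk sac and fetal liver. These cells depend on the receptor Csf1r and its ligands Csf1 and Il34, and their identity on the transcription factor PU.1, the product of Spi1. PU.1 binds purine-rich sites around a GGAA core, which many myeloid promoters carry in place of a TATA box. Macrophages clear dying cells with the help of complement C1q, Fc receptors and lysosomal enzymes, and they signal through small adaptor proteins with an ITAM motif, Fcer1g and Tyrobp.

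The start regions of 6 members are shown because the lysozymes and the C1q genes gave some of the largest positive folds and come in neighbouring copies, and because Pf4 and Cd53 show the PU.1-type letters in genes that read differently across the arrays. Each run is the 250 bases before the RefSeq transcript start in GRCm38.p6, on the gene's own strand. Lyz1 lies at chr10:117292869-117293118 and Lyz2 at chr10:117282273-117282522, both on the minus strand, and capitals mark the longest run of letters that they share.
Lyz1: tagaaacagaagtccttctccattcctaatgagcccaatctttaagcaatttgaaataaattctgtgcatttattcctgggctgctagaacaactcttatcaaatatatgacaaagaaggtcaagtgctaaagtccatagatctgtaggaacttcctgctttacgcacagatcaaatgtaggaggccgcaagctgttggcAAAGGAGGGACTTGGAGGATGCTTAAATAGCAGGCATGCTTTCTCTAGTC
Lyz2: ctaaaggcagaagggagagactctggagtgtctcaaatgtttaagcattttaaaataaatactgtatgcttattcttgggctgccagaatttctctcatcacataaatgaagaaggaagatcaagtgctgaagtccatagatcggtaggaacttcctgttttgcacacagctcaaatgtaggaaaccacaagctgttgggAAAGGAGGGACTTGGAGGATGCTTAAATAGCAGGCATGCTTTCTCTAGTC
The shared run was 50 bases long and ended at the start site. Over all 250 bases, 60.8% of letters were the same without gaps, and 86% over the 150 bases nearest the start. Lyz1 and Lyz2 are close relatives, so probes of one may also read transcripts of the other, which was not tested. In the next 4 regions capitals mark GAGGAA on either strand (TTCCTC on the other), with the added letters where it reads GAGGAAGT (ACTTCCTC on the other). C1qb lies at chr4:136886201-136886450 (minus), C1qc at chr4:136892915-136893164 (minus), Pf4 at chr5:90772185-90772434 (plus) and Cd53 at chr3:106790150-106790399 (minus).
C1qb: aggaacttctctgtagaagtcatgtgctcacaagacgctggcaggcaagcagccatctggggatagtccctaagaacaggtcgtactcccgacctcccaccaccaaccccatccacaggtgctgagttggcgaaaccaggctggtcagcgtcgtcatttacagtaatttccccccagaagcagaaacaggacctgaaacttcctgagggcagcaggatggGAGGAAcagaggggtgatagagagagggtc
C1qc: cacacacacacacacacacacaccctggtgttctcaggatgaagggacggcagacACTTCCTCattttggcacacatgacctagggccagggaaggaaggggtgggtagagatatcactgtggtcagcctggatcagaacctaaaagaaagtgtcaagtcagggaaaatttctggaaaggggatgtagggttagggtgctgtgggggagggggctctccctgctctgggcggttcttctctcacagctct
Pf4: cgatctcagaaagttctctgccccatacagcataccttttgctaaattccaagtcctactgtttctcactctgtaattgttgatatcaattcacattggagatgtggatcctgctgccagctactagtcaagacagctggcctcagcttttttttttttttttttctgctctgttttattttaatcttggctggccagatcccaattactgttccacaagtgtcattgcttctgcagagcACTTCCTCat
Cd53: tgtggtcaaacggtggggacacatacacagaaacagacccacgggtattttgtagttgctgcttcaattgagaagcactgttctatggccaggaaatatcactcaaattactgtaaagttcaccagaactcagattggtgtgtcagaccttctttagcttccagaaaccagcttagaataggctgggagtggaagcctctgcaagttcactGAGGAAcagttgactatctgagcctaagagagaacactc
The table of start regions, each with 250 bases before and 50 after the start, held 28 windows for 25 of the 32 members. GAGGAA, on either strand, was in 17 of these 28 windows and in 28.3% of all 32851 windows. Some members had several windows, which overlap for Fcgr3, and by member it was in 15 of the 25. The longer GAGGAAGT, which contains the shorter motif, was in 5 of the 28 and in 3.2% of all. TATAAA, on either strand, was in 3 of the 28 and in 13.6% of all. In the regions shown, GAGGAA began 30 bases before the start of C1qb and 39 before that of Cd53. Neither lysozyme window held GAGGAA, though both held the GGAA core on each strand, within taggaacttcctg. Matches of letters are a description of these windows.

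Most of the myeloid genes read somewhat higher in Ovol2 BT skin, and none of the differences passed the test over all genes. In limma, 0 of 30 members were called at an adjusted p under 0.05 (their adjusted p lay between 0.763 and 0.988), against 0.0268% of all genes. At an unadjusted p under 0.05 there were 7 members with a positive fold, against 2.49% of all genes, and 8 in either direction, against 4.23%. Folds were positive for 24 of 30 members and for 54.4% of all genes. Their median was 0.37, against 0.03 over all genes tested. Both Ovol2 BT arrays lay above both control arrays for 17 of the 30, against 20.1% of all genes, and below both for 1, against 14.1%. These shares of all genes also apply to the groups of members below. The median SE of a member was 0.20. Lists are described by counts here because the genes were chosen with earlier results of these data known.

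**Figure D1:**
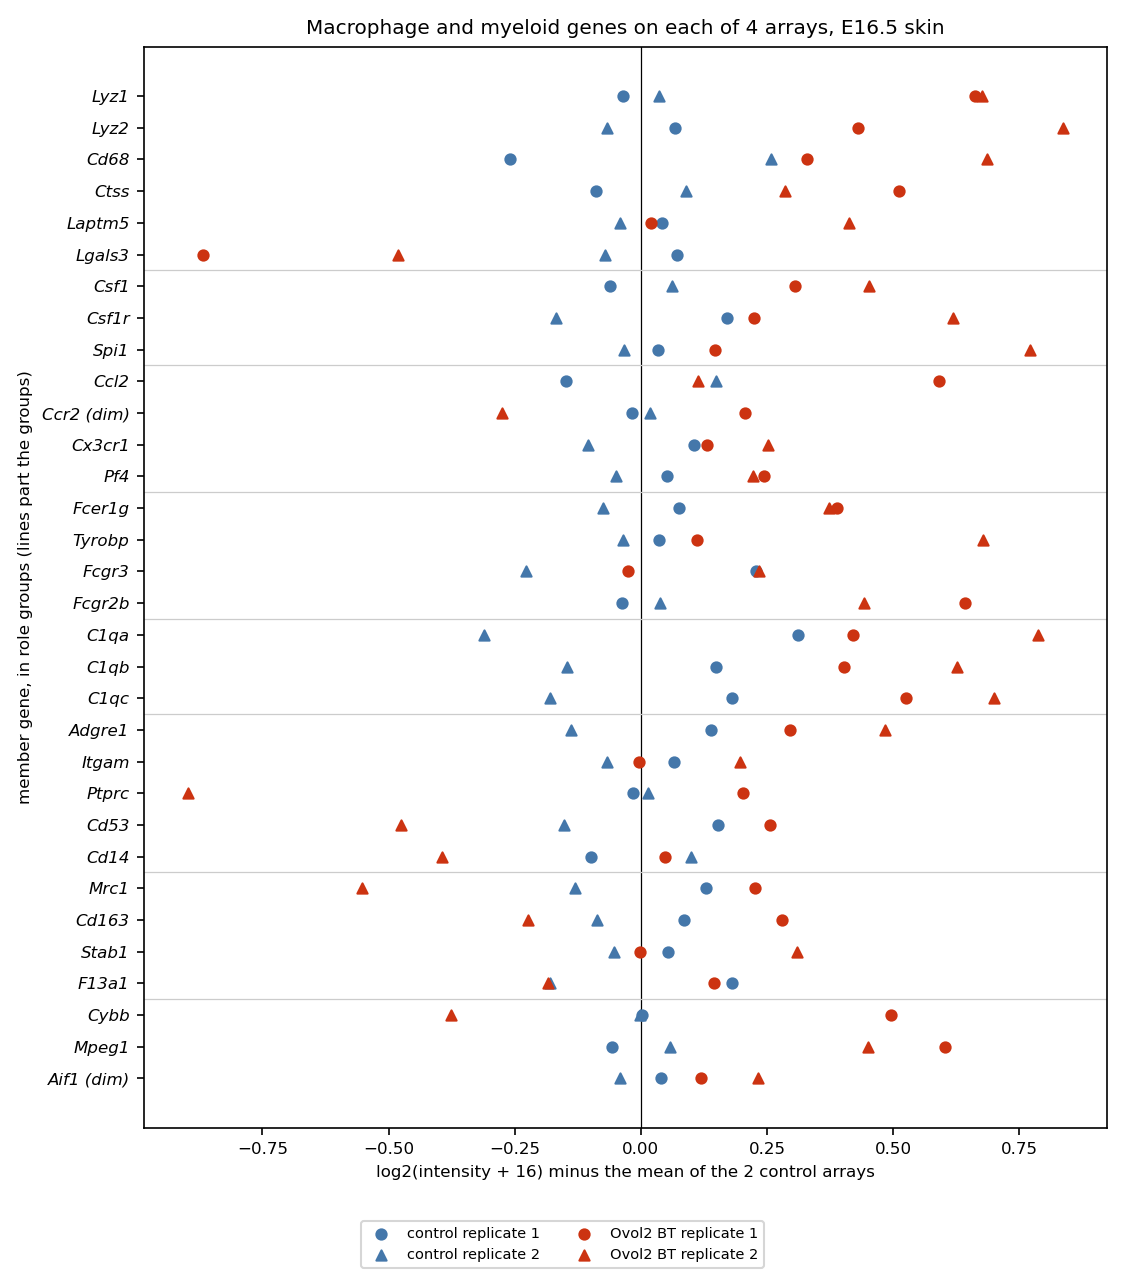
Level of each member on each array, as the difference on the log2(intensity + 16) scale from the mean of the 2 control arrays (blue, control; red, Ovol2 BT; circles, replicate 1; triangles, replicate 2). Both red points lie right of both blue points for Lyz1, Lyz2, Fcer1g, Fcgr2b and the C1q genes, and left of both for Lgals3. Ptprc, Cd53, Mrc1, Cd163 and Cybb, among others, have the red points on opposite sides of 0.

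Lysozymes and lysosomal genes held both the largest positive and the most negative fold of the members. Lyz1, an antibacterial lysozyme also made by Paneth cells, read 8.36 and 8.43 in control skin and 9.06 and 9.07 in Ovol2 BT skin. The 2 groups were apart by more than the spread within either, and the fold was 0.67 (SE 0.17, 95% interval 0.24 to 1.09, limma adjusted p = 0.777). Lyz2, the lysozyme of macrophages and neutrophils, read 9.98 and 9.85 in control and 10.35 and 10.75 in Ovol2 BT skin. Its fold was 0.63 (SE 0.22, limma adjusted p = 0.906), with replicate 2 the higher of the Ovol2 BT arrays. Ctss, a lysosomal protease of antigen processing, read 8.19 and 8.37 against 8.79 and 8.57, again without overlap. Cd68, a glycoprotein of lysosome membranes, read 9.96 and 10.48 against 10.55 and 10.91. There the control arrays lay 0.52 from each other, as far as the fold of 0.51. Laptm5, a lysosomal membrane protein of blood cells, overlapped between groups (11.37 and 11.28 against 11.35 and 11.74).

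Lgals3 went the other way. This gene encodes galectin 3, a sugar-binding protein that is made by macrophages and also by keratinocytes. It read 12.51 and 12.36 in control skin and 11.57 and 11.96 in Ovol2 BT skin. Both Ovol2 BT arrays were thus below both control arrays, and Lgals3 was the single member of the 30 for which this held. The fold was -0.67 (SE 0.16, 95% interval -1.08 to -0.27, limma adjusted p = 0.763). Without Ovol2 BT replicate 2 it was -0.87 with a limma adjusted p of 0.00955, and without Ovol2 BT replicate 1 it was -0.48 with 0.0170; with 1 Ovol2 BT array left, these fits take its spread from the controls. Without control replicate 1 it was -0.60 (limma adjusted p = 0.9998) and without control replicate 2 it was -0.75 (0.9999). Of the 8 genes in the keratinocyte list, 7 had a negative fold, against 6813 of all 14953 genes tested. Krt15 was at -1.41 (SE 0.13, limma adjusted p = 0.101), Krt5 at -0.87 (SE 0.06, limma adjusted p = 0.0597) and Krt14 at -0.66. For Krt5 the limma adjusted p was 0.0295 with quantile normalisation, 0.0291 with a filter at the 50th percentile and 0.0465 with the replicate block. Krt1 (-0.08), Krt10 (-0.08) and Lor (0.02) had small folds, and Trp63 and Ivl overlapped between the groups. The summed intensity of the list was 86100 to 88250 in control and 68930 to 71390 in Ovol2 BT skin. The part of keratinocyte RNA in the Lgals3 value was not tested.

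The 3 genes of the CSF1 axis and its lineage factor were all higher on both Ovol2 BT arrays than on both control arrays. Over all genes tested, that share was 20.1%. Csf1, the growth factor of macrophages, read 10.27 and 10.40 in control and 10.64 and 10.79 in Ovol2 BT skin, a fold of 0.38 (SE 0.18). Its receptor Csf1r, the defining receptor tyrosine kinase of the lineage, read 10.69 and 10.35 against 10.75 and 11.14, a fold of 0.42 (SE 0.22). Spi1, which encodes PU.1, read 9.35 and 9.28 against 9.46 and 10.09, a fold of 0.46 (SE 0.26). For Csf1r and Spi1 the first Ovol2 BT array lay close to the higher control array, and most of the difference came from the second. None of the 3 passed the test (each limma adjusted p = 0.906). Il34, the other ligand of Csf1r, made in skin by keratinocytes, read 9.37 and 9.46 against 9.01 and 9.36, with both Ovol2 BT arrays below both controls (fold -0.23, SE 0.21).

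Among chemokines and their receptors, Pf4 and Cx3cr1 were apart between the groups by small amounts. Pf4, a chemokine of platelets that fetal macrophages also express, read 11.13 and 11.03 in control and 11.33 and 11.31 in Ovol2 BT skin, a fold of 0.23 (SE 0.15). Cx3cr1, the fractalkine receptor of resident and patrolling cells, read 9.65 and 9.44 against 9.68 and 9.80, a fold of 0.19 (SE 0.19). The first of its Ovol2 BT values was within 0.03 log2 units of the higher control. Ccl2, which attracts monocytes, overlapped between groups, at 8.61 and 8.90 against 9.35 and 8.87. Its receptor Ccr2, which marks monocytes, was under the filter on dim genes, at 7.30 and 7.34 against 7.53 and 7.05.

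Fc receptors and ITAM adaptors all had positive folds, against 54.4% of all genes. Of the 4, 3 were higher on both Ovol2 BT arrays than on both controls, against 20.1% of all genes. Fcer1g, the shared gamma chain of activating Fc receptors, read 11.58 and 11.43 in control and 11.89 and 11.88 in Ovol2 BT skin, a fold of 0.38 (SE 0.13, 95% interval 0.06 to 0.71, limma adjusted p = 0.906). Fcgr2b, the inhibitory IgG receptor, read 9.41 and 9.48 against 10.09 and 9.89, a fold of 0.54 (SE 0.19). Fcgr3, an activating IgG receptor that needs Fcer1g, overlapped, at 10.02 and 9.57 against 9.77 and 10.03. Tyrobp, also called DAP12, the adaptor of Trem2, read 10.58 and 10.51 against 10.65 and 11.22. Its fold of 0.40 rested mostly on Ovol2 BT replicate 2 and was 0.11 without it.

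The genes of complement C1q, the recognition molecule of the classical pathway, were higher on both Ovol2 BT arrays than on both controls. C1qa, C1qb and C1qc encode its 3 chains and sit next to each other in the genome. C1qa read 9.07 and 8.45 in control skin and 9.18 and 9.54 in Ovol2 BT skin, a fold of 0.60 (SE 0.28). C1qb read 11.23 and 10.94 against 11.49 and 11.71, a fold of 0.51 (SE 0.18, 95% interval 0.07 to 0.96). C1qc read 10.54 and 10.18 against 10.89 and 11.06, a fold of 0.61 (SE 0.20, 95% interval 0.11 to 1.12). The order of the arrays was the same for all 3 genes, control replicate 2 lowest, then control replicate 1, Ovol2 BT replicate 1 and Ovol2 BT replicate 2. Each had a limma adjusted p of 0.906. Control replicate 2 lay 0.30 to 0.62 below control replicate 1 for these genes, so the controls differed by up to as much as the groups. C1qa had a fold of 0.29 without control replicate 2 and of 0.91 without control replicate 1.

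**Figure D2:**
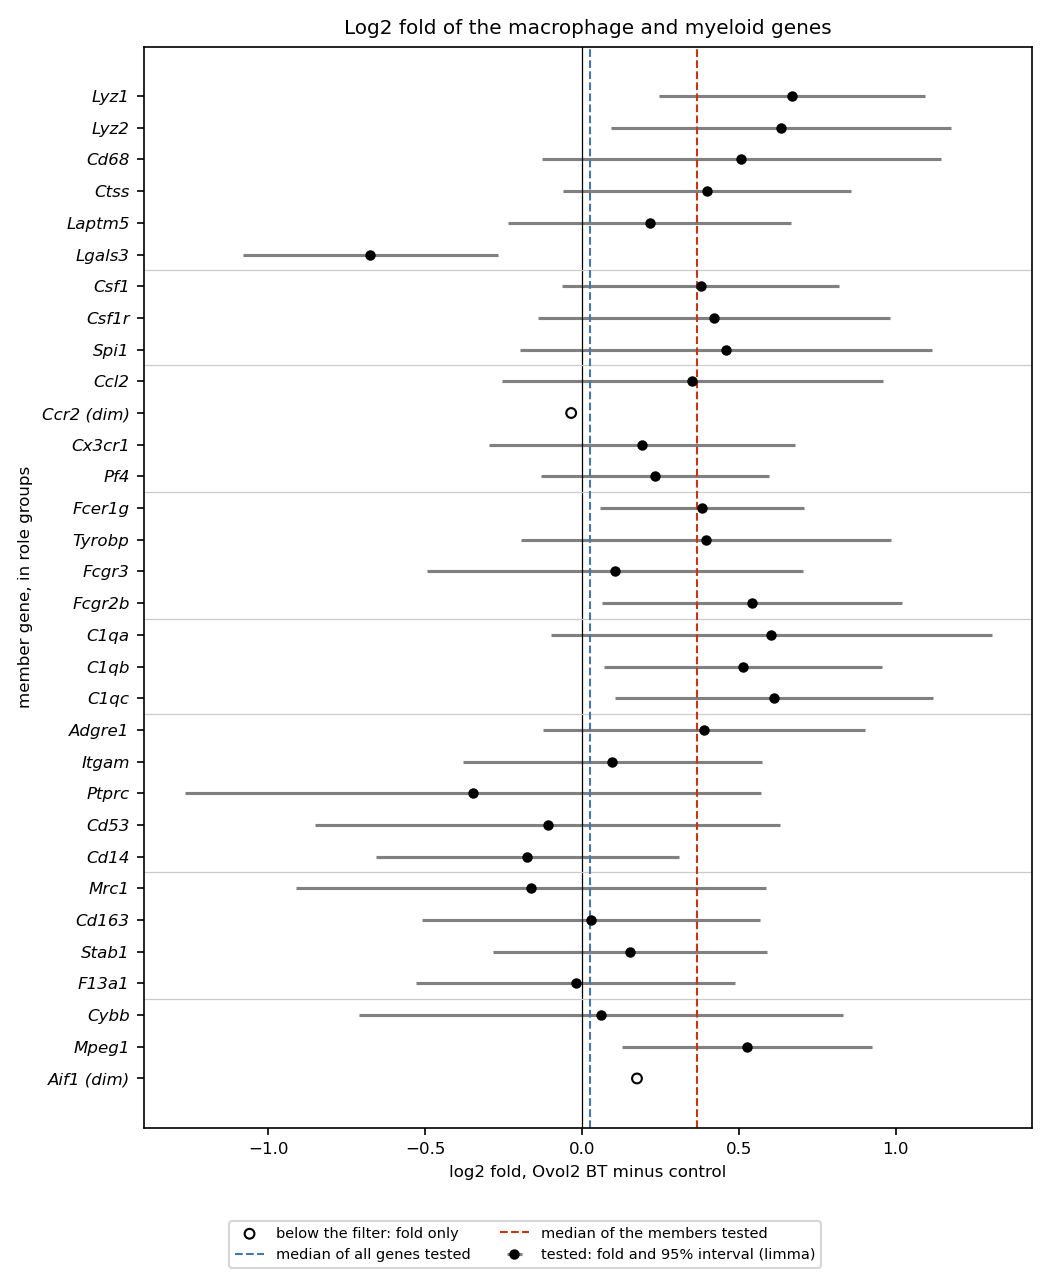
Log2 fold of each member, Ovol2 BT minus control, with its 95% interval from limma (2 arrays a group); open circles are the 2 genes below the filter on dim genes. The interval leaves out 0 for 8 members (Lyz1, Lyz2, Lgals3, Fcer1g, Fcgr2b, C1qb, C1qc and Mpeg1), before any adjustment over the genes tested.

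Leukocyte surface genes gave no common direction. Adgre1, which encodes the macrophage antigen F4/80, read 9.20 and 8.92 in control and 9.36 and 9.54 in Ovol2 BT skin, a fold of 0.39 (SE 0.20). It was the only gene of the 5 in this group whose arrays were apart. Of all genes tested, 20.1% were higher on both Ovol2 BT arrays. Itgam, the CD11b integrin chain, read 9.15 and 9.01 against 9.08 and 9.28, a fold of 0.10 (SE 0.19). Ptprc, the pan-leukocyte phosphatase CD45, read 8.33 and 8.36 on the controls and 8.55 and 7.45 on Ovol2 BT replicates 1 and 2. The control arrays were 0.03 apart and the Ovol2 BT arrays over 1 log2 unit apart, and the first of these was above and the second below both controls. Cd53, a tetraspanin of leukocytes, was split in the same way (10.50 and 10.19 against 10.60 and 9.87). Cd14, the co-receptor for bacterial lipopolysaccharide, was close to the filter on dim genes at 7.34 and 7.54 against 7.48 and 7.04.

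Scavenger receptors and other genes of resident macrophages overlapped between the groups throughout. Mrc1, the mannose receptor CD206 of dermal macrophages, read 10.80 and 10.54 in control and 10.89 and 10.11 in Ovol2 BT skin (fold -0.16, SE 0.30, 95% interval -0.91 to 0.59). Cd163, the scavenger receptor for haemoglobin bound to haptoglobin, read 7.96 and 7.79 against 8.15 and 7.65. Here too replicate 1 was the highest and replicate 2 the lowest of the 4 arrays. F13a1, the A chain of clotting factor XIII, a marker of dermal macrophages, read 11.47 and 11.11 against 11.43 and 11.11, a fold of -0.02 (SE 0.20). Stab1, the receptor stabilin 1, which endothelium also makes, read 11.17 and 11.06 against 11.11 and 11.42.

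The last 3 genes serve killing and movement. Mpeg1, which encodes the pore-forming protein perforin 2, read 7.73 and 7.85 in control and 8.39 and 8.24 in Ovol2 BT skin, a fold of 0.53 (SE 0.16, 95% interval 0.13 to 0.92, limma adjusted p = 0.906). Cybb, the catalytic chain of the phagocyte NADPH oxidase, read 8.33 and 8.32 against 8.82 and 7.95, with the Ovol2 BT arrays on either side of the controls. Aif1, the actin-binding protein Iba1, was under the filter at 6.82 and 6.74 against 6.90 and 7.01.

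The 2 Ovol2 BT arrays lay on the same side of the control mean for most members and on opposite sides for others. On Ovol2 BT replicate 1, 26 of 30 members lay above the control mean, with a median of 0.27, against 49.1% of all genes. On replicate 2 it was 22 of 30, with a median of 0.34, against 58.8% of all genes. Replicate 2 lay over 0.5 log2 units below replicate 1 for Ptprc, Cd53, Mrc1, Cd163 and Cybb. That is 16.7% of the members and 15.5% of all genes tested, so the share among the members was near that of the whole array. Without this array, the folds of Ptprc, Cd53 and Mrc1 were 0.20, 0.26 and 0.23 in place of -0.35, -0.11 and -0.16, and Cybb had 0.50 in place of 0.06. Between the controls, replicate 2 lay above replicate 1 for 9 of 30 members, with a median of -0.12, so the control arrays differed too.

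**Figure D3:**
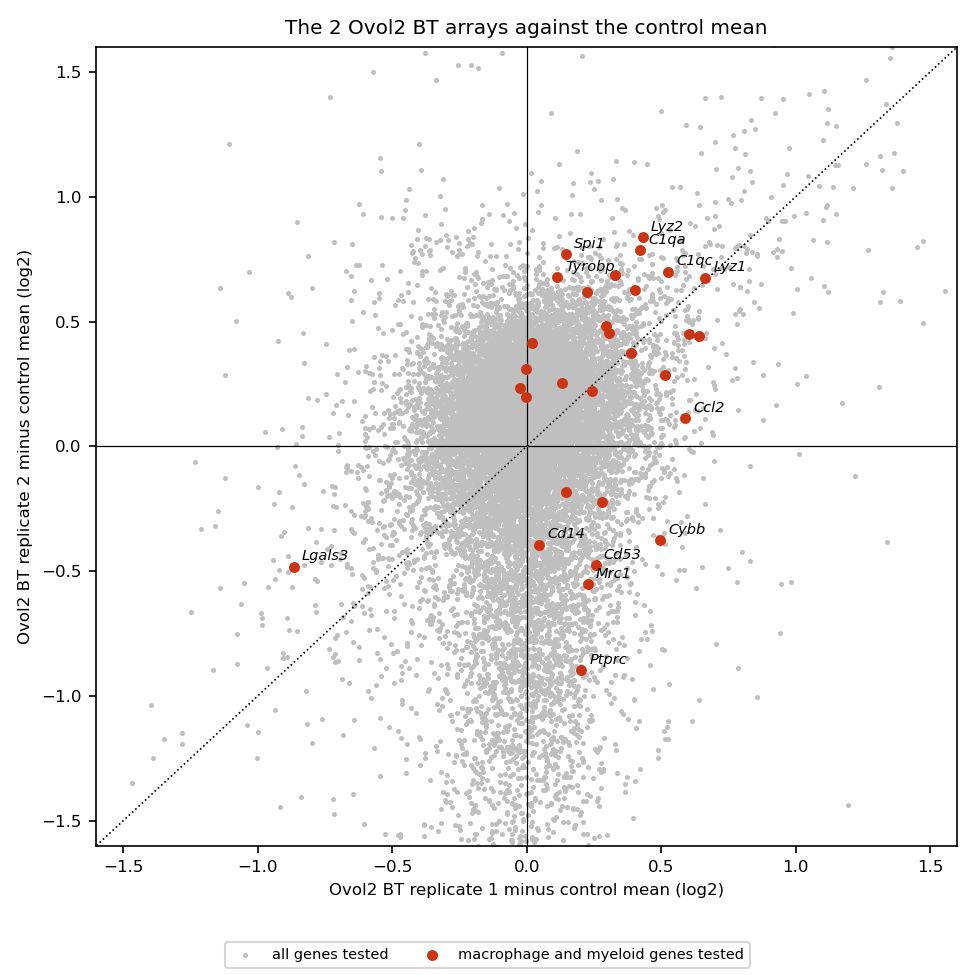
Each gene's level on Ovol2 BT replicate 1 (horizontal) and replicate 2 (vertical) minus the control mean, in log2 units; grey, all genes tested; red, the members tested; the dotted line marks equal differences, and genes beyond the axes are not drawn. Most red points lie in the upper right, and Lgals3 lies in the lower left. Ptprc, Mrc1, Cd53, Cd14 and Cybb lie in the lower right with the many grey points that were low on replicate 2. Cd163 and F13a1, which are not labelled, lie there too.

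Other genes linked to these cells, not all of them confined to myeloid cells, were read in the same fit. Their lists hold no member, and no gene of them was called in limma. Of 18 phagocyte signalling genes tested, 17 had a positive fold, 13 were higher on both Ovol2 BT arrays than on both controls, and 2 had an unadjusted p under 0.05. Over all genes tested these shares were 54.4% positive, 20.1% higher on both arrays and 4.23% at an unadjusted p under 0.05, which also apply to the lists that follow. Cyba, the partner chain of Cybb in the oxidase, had a fold of 0.48 (SE 0.19), and Rac2, a small GTPase of leukocytes, one of 0.41 (SE 0.23). Their median was 0.26. Of 9 monocyte chemoattractants and receptors, 6 had positive folds and were apart between the groups, with a median of 0.38. Ccl6, a chemokine of myeloid cells, read 8.08 and 7.83 against 8.77 and 9.13 (fold 0.99, SE 0.21, limma adjusted p = 0.641). C3ar1, the receptor for complement fragment C3a, had a fold of 0.59 (SE 0.23).

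Of 16 genes of resident and perivascular macrophages tested, 12 had positive folds, 7 were higher on both Ovol2 BT arrays than on both controls and 0 lower on both, and the median was 0.25. The 2 largest folds were those of Hmox1 and Cbr2. Hmox1, the haem-degrading enzyme induced by haem and oxidative stress, read 10.72 and 10.28 in control and 11.62 and 11.85 in Ovol2 BT skin (fold 1.24, SE 0.21, limma adjusted p = 0.432). Cbr2, a carbonyl reductase, read 11.10 and 11.15 against 11.82 and 12.10 (fold 0.84, SE 0.15, limma adjusted p = 0.484). Neither is confined to macrophages. The list of CSF1 and IL-34 pathway genes and transcription factors had a median of 0.03 over 13 genes, 9 positive and 4 negative, with Cebpa at -0.47 (SE 0.23) and Irf8 at 0.37 (SE 0.20).

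Markers of other blood cells and tissues give the setting of these values. The summed deposited intensity of the 32 members was 39360 and 35530 in control and 41230 and 44480 in Ovol2 BT skin. Langerhans and dendritic cell genes (8 of 12 tested, none called) had a median of 0.21, and their sum was 2598 to 3104 in control and 3080 to 3692 in Ovol2 BT skin. Cd207 (langerin), Itgax, Flt3 and Clec9a were below the filter. Cd74 (0.57) and H2-Aa (0.57), which serve antigen presentation by class II, lay highest in that list. H2-Aa was 0.31 without control replicate 1 and 0.83 without control replicate 2. Neutrophil genes were mostly below the filter (4 of 12 tested, Ly6g, Mpo and Elane not among them), with sums of 1380 to 1914 and 1599 to 2220 and a median of 0.09. Ngp (1.54, SE 0.70), a neutrophil granule gene, was highest on Ovol2 BT replicate 1, and Prtn3 was at 0.10. Mast cell genes (8 of 10 tested) had sums of 28820 to 31180 and 30670 to 32920, which overlapped, with Mcpt4 at 0.65 (SE 0.31) and Tpsab1 at 0.58 (SE 0.30). Their median was 0.15, and 2 of the 8 had negative folds, Cpa3 at -0.29 and Kit at -0.19. Lymphocyte genes (6 of 14 tested) had sums of 4400 to 4545 and 4108 to 4549, with Cd79b at 0.36 and Zap70 at 0.26. The median of that list was 0.15, and 1 of the 6, Thy1, had a negative fold, at -0.19. Megakaryocyte and platelet genes (5 of 9 tested) had a median of 0.23 and sums of 1953 to 2260 and 2372 to 2859, with Gp9 at 0.67 (SE 0.33) and Ppbp at 0.52. Pf4, a gene of platelets too, also had a positive fold. From control replicate 1 to 2 it changed by -0.101, against a median of 0.394 for the platelet list. From Ovol2 BT replicate 1 to 2 it changed by -0.021, against 0.215. The part of platelets in the Pf4 value was not tested.

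Blood and muscle content varied between arrays of one genotype. The erythroid list (5 of 14 tested) lay at a median of -0.21 from the control mean on the first Ovol2 BT array and of 1.50 on the second, with Tspo2 at 1.78 (SE 1.08) and Alas2 at 0.66 (SE 0.63). The skeletal muscle list (12 of 12 tested) had medians of -0.44 and 0.60 on the same arrays. Its folds were split, 6 positive and 6 negative, with a median of 0.03. The largest were Myh7 at 0.39 and Tnni2 at 0.34. Over the muscle list the summed intensity was 54040 and 30340 on control replicates 1 and 2. On Ovol2 BT replicates 1 and 2 it was 29080 and 58100. The median of the myeloid members from the control mean was 0.27 on Ovol2 BT replicate 1 and 0.34 on replicate 2. The part of blood and muscle content in the myeloid values was not tested. Endothelial genes had a median of 0.11 over 11 genes (Egfl7 0.19, Tie1 0.18), and dermal fibroblast genes one of 0.02 over 7 (Lum -0.24, Twist2 0.20). No gene of these lists was called in limma.

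**Figure D4:**
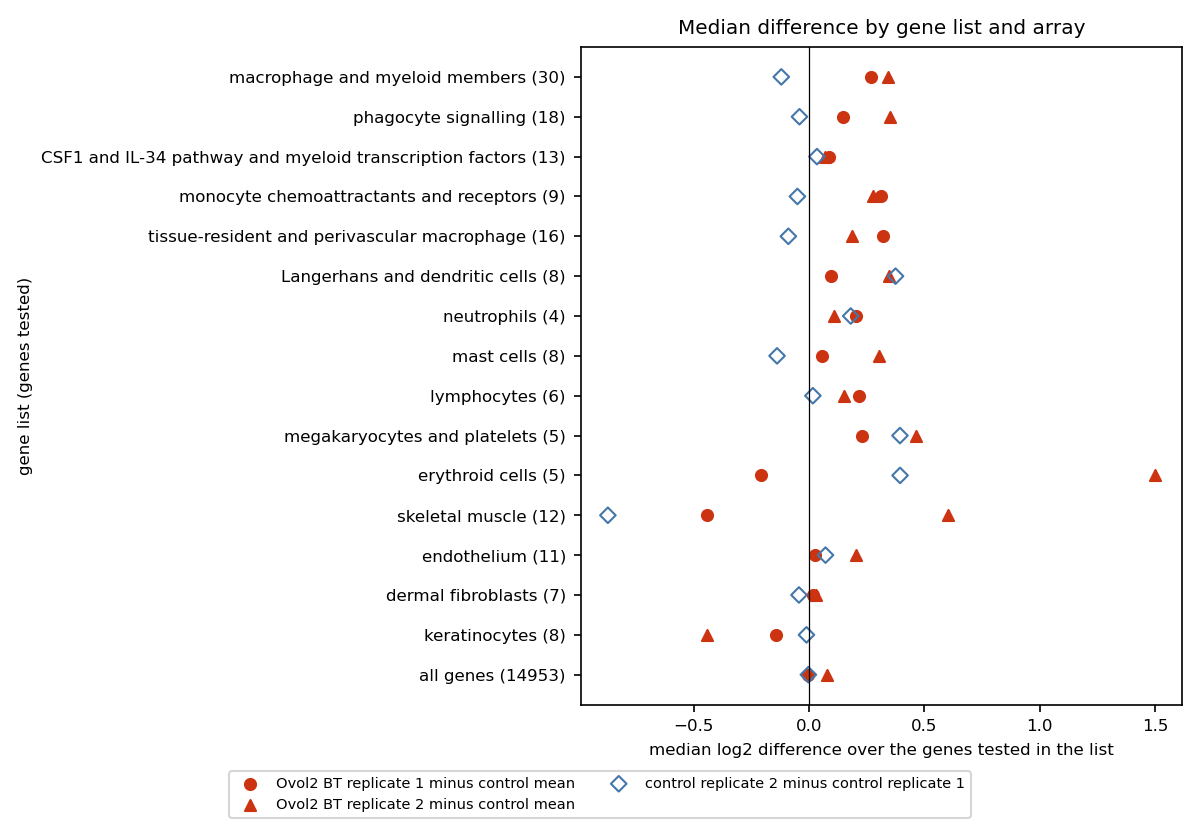
Median log2 difference over the tested genes of each list (their number in brackets), for Ovol2 BT replicate 1 (red circles) and replicate 2 (red triangles) against the control mean and for control replicate 2 minus replicate 1 (blue diamonds). The myeloid members, the phagocyte signalling genes, the chemoattractants and the resident macrophage genes have both red points above 0 and the blue point below. The mast cell and dermal fibroblast lists show the same order, the latter by small amounts. The erythroid and skeletal muscle lists have the red points on opposite sides of 0.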

How the data were processed

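Per the submitters' processing notes, the authors summarised each probe set by PLIER 2.0 in Affymetrix Expression Console 1.1.1 and deposited 1 linear intensity per probe set and array. The normalisation between arrays and the probe sets' build are not given in these sources. Of 35557 probe sets, 21789 had 1 gene symbol, 1621 several and 12147 none, and only the first were used. Entrez numbers gave current RefSeq symbols (GRCm38.p6) for 21698 of them.

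From these, log2(intensity + 16) was taken with no further normalisation, and the brightest probe set per gene was kept. limma 3.58.1 in R 4.3.3 fitted Ovol2 BT minus control by lmFit and eBayes (intensity trend on) (two-sided; degrees of freedom 2 residual, 3.45 prior), and p-values were adjusted over 14953 genes by Benjamini-Hochberg. Nothing says that the replicates share a litter or a day. With 2 arrays a group, the smallest p of an exact permutation test is 0.333. The number of arrays limits the precision. The steps were tested on simulated data. The members, the other lists and the tests were chosen with earlier results of these data known. All members are named, and of each other list the genes called or, where none was, the 2 with the largest fold. Il34, Col1a1, Cpa3, Kit, Thy1 and genes named as below the filter were added after their values were seen. Start regions come from RefSeq.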

Additional observations from a re-analysis of the deposited data

How the results depend on the processing

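The median fold of the members (0.37) lay between 0.29 (without the filter, where 32 members were read) and 0.43 (median centring) under the alternatives that kept all arrays, and between 0.25 and 0.34 when 1 array was left out. The count of positive folds was 19 of 23 with a filter at the 50th percentile and between 22 and 26 of 30 when 1 array was left out. Members called numbered 0 in every limma fit on all 4 arrays, and between 0 and 9 when 1 array was left out: 9 without Ovol2 BT replicate 1 (Lyz1, Lyz2, Csf1r, Spi1, Tyrobp, C1qb and C1qc higher, Lgals3 and Ptprc lower) and 1, Lgals3, without replicate 2. With 1 Ovol2 BT array left, its spread is taken from the controls. With any 1 array left out, all-gene calls ran from 4 (without control replicate 2) to 2453 (without Ovol2 BT replicate 1). With all arrays, all-gene calls were 7 with median centring, 0 without a trend (601 at an unadjusted p under 0.05) and 9 with the replicate block, against 4. The block called 0 members and changed no member's call. Same-numbered arrays deviated from their group means with r = -0.17 across genes, and nothing in the labels says that a number marks a shared litter or day, so the numbers were not taken to pair the samples, although the Y-linked signal follows them in both groups. A crossed block, chosen after seeing the data, called 5 genes and 0 members.

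F13a1 turned to 0.044 with median centring. When 1 array was left out, folds that crossed 0 ran from -0.20 to 0.16 for F13a1, -0.48 to 0.26 for Cd53, -0.12 to 0.33 for Fcgr3, -0.22 to 0.28 for Cd163, -0.38 to 0.50 for Cybb, -0.0030 to 0.20 for Itgam, -0.90 to 0.20 for Ptprc, -0.39 to 0.047 for Cd14, -0.55 to 0.23 for Mrc1 and -0.0014 to 0.31 for Stab1, and, in other lists, -0.21 to 1.53 for Alas2, -0.32 to 1.002 for Tnni2 and -0.64 to 0.16 for Lum. The cause was not tested.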
